A study of Mus musculus with 12 samples.

Results

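The measurement described here is the difference between 2 responses to a treatment labelled IR. It is the change in RNA levels from untreated to IR-treated cells that carry the Rnf19a guide, minus the same change in cells that carry the control guide sgNC. All 12 libraries of the series enter it, 3 in each of 4 groups: control (sgNC, untreated), control IR (sgNC, IR-treated, 24 h), sgRnf19a (untreated) and sgRnf19a IR (IR-treated, 24 h). Of 18183 genes with enough counts, 124 (0.682%) had an IR response that differed between the genotypes at an edgeR adjusted p under 0.05. The difference was higher with the Rnf19a guide for 99 genes (0.544%) and lower for 25 (0.137%). The 99 included the interferon-response genes Ifit3, Gbp2 and Mx1 and the cytokine gene Il15, and the 25 included Jun, Fosb, Hbegf, Relt and Rin1.

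Each of the 124 genes was classed by whether its IR response passed the same test within each genotype. A gained response, called with the Rnf19a guide only, was found for 43 genes. A lost response, called with the control guide only, was found for 23. In 24 genes the response was reversed, with calls of opposite sign in the 2 genotypes, and in 34 it kept its sign and changed in size. These counts stand against 8707 genes (47.9%) called for IR in control cells and 6475 (35.6%) called for IR in sgRnf19a cells, so a call within a genotype was common.

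All cells are labelled B16F10, a transplantable mouse melanoma line. The labels describe the guide cells as Rnf19a deficient and do not spell out IR, and they do not say whether a guide line was a clone or a pool, or whether replicate libraries stem from separately grown cells. The p-values therefore measure the spread between these libraries, which may be technical. The count columns of the treated libraries carry numbers of their own (1, 4 and 5 in control IR; 1, 3 and 4 in sgRnf19a IR), which are used here as replicate names. Most markers of the labelled cell type were at or near 0: 5 of 10 melanocyte markers (Tyr, Tyrp1, Mlana, Slc45a2 and Oca2) had 0 counts in all 12 libraries, and Dct had 6 counts in total. Pmel, Sox10 and Trpm1 reached at most 0.446, 0.496 and 0.932 CPM (here counts relative to the library total, without scaling), and Mitf lay between 1.81 and 18.8. Of 7 epithelial markers, the keratins Krt8, Krt18 and Krt19 lay between 87.6 and 581.9 on that scale and Epcam between 0.708 and 2.50, while Krt5, Krt14 and Cdh1 had 0, 6 and 36 counts in total. For single genes below, CPM are a gene's counts relative to the TMM-scaled library total. None of the melanocyte, fibroblast, immune, endothelial or epithelial markers was called in the difference by edgeR. At an unadjusted p under 0.05, 1 melanocyte, 2 fibroblast and 2 endothelial markers were higher, and DESeq2 called 1 fibroblast and 1 endothelial marker higher. In such bulk RNA, fewer cells of a type and less RNA per cell cannot be told apart.

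The product of Rnf19a is an E3 ubiquitin ligase of the RING-between-RING (RBR) type. When cells sense nucleic acids in the wrong compartment, through proteins such as cGAS or the RIG-I-like receptors, they induce type I interferon. Interferon then acts through receptor-bound kinases and transcription factors such as IRF9 to switch on many interferon-stimulated genes, whose promoters often hold the element called ISRE. Immediate early genes such as Jun and Fosb encode AP-1 transcription factors that stress and growth-factor kinases induce.

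Total counts were 62681644 to 71265107 in the untreated libraries and 34262483 to 45576326 in the IR-treated ones. Ribosomal RNA genes took 0.408% to 0.813% of counts without IR and 11.4% to 22.2% with it. The libraries also differed in the balance of transcripts over 6 kb against those under 1 kb. The long-minus-short difference was 1.95 ± 0.37 (SD, n = 3) log2 units in control and -0.92 ± 0.10 in control IR. It was 2.56 ± 0.08 in sgRnf19a, and in sgRnf19a IR it was 0.10, -0.63 and 0.99 for replicates 1, 3 and 4. The sgRnf19a IR libraries were thus spread, with replicate 4 the highest of the IR-treated libraries and replicate 3 nearest to control IR. Across 13983 protein-coding genes, the difference between IR responses had a Spearman rho of -0.496 with GC content and 0.236 with transcript length, as a description across genes, which are not independent replicates. After a per-library correction for transcript length and GC content the values were -0.102 and -0.00487, and 374 genes (2.06%) were called, 223 higher (1.23%) and 151 lower (0.83%). The share of calls that were higher thus moved from 79.8% to 59.6%, and the median difference of all genes from 0.09 to -0.06 log2 units. Of the 124 genes, 101 were also called with the same sign after the correction, 77 of the 99 higher and 24 of the 25 lower. Without sgRnf19a IR replicate 4, 500 genes of 19217 (2.6%) were called, 375 higher (1.95%) and 125 lower (0.65%), and they held all 124.

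The count of calls depended on single libraries. It was 5 without control IR replicate 5 and 2624 without sgRnf19a IR replicate 3, and each of the 12 omissions moved it by more than 1.5 times. All 124 genes kept the sign of their difference in all 12 omissions. Among the 59 called genes that are named in the text, leaving out 1 library moved the fold of 4 by over 1.5 times (Angpt1, Lifr, Ppm1k and Etl4), and the correction did so for 16, which have both values below. Il15, Tlr2, Dll1, Asb13 and Plscr2, 5 genes named here after their values were seen, were called in each of them, and the other 119 lost the call in at least 1.

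**Figure D1:**
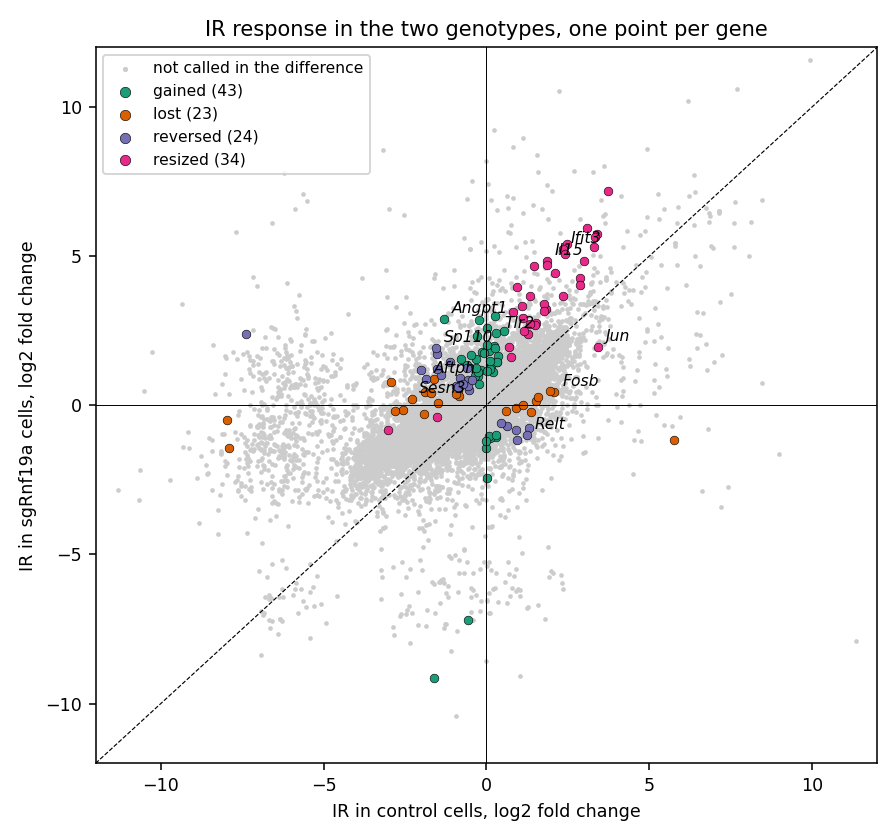
IR response in control cells (x axis) against IR response in sgRnf19a cells (y axis), both as log2 fold changes, for the 18183 genes tested, with the 124 genes of the difference coloured by class. The 34 genes with a changed size (called resized in the plot) lie mostly in the upper right, above the dashed line of equal responses, the 24 reversed genes lie in the upper left and lower right fields, and Jun and Fosb lie below the line.

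The targeted gene was examined first. Rnf19a (chromosome 15, 36239933 to 36283147, coordinates as deposited) was at 33.5, 29.4 and 21.5 CPM in control and 27.4, 25.6 and 22.6 CPM in sgRnf19a, which overlap. After IR it was at 4.37, 8.06 and 5.39 CPM in control and 18.1, 11.6 and 37.7 CPM in sgRnf19a. Its RNA fell with IR in control cells and not detectably in sgRnf19a cells, and the libraries labelled sgRnf19a IR lay above those labelled control IR. The difference between the responses was 2.08 log2 units (SE 0.52) and missed the call (edgeR adjusted p = 0.0877). It was 1.38 after the length and GC correction (adjusted p = 0.0435), which placed it among the lost responses there. RNA level does not show whether a guide cut its target, so the genotype labels are used as given.

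RefSeq promoter sequences (mouse build GRCm38.p6, 250 bases before to 50 after the start) were available for 69 of the 99 genes with a higher difference and for 17 of the 25 with a lower one. The ISRE letters GAAANNGAAA, searched on both strands, occurred in the promoters of 10 of the 69 genes (14.5%) and of 0 of the 17, against 3.99% of 27025 genes in the whole table. Another 2 motifs were searched the same way. GAS letters (TTCNNNGAA) were in 6 of 69 (8.7%) and 0 of 17, against 9.55% of all genes, and AP-1 letters (TGANTCA) were in 8 of 69 (11.6%) and 1 of 17, against 8.97%. Ifit3b is a near copy of Ifit3, so the 10 genes are not independent. The 4 promoters below belong to interferon-induced genes whose IR response was larger with the Rnf19a guide. They are shown because they carry the ISRE letters, which are in capitals on whichever strand they were found. Those of Ifit1 (plus strand, chr19:34640639-34640938) start 104 and 85 bases before the transcription start, those of Ifit3 (plus strand, chr19:34583279-34583578) 156 and 122, that of Gbp2 (plus strand, chr3:142620413-142620712) 59 and that of Tgtp2 (minus strand, chr11:49064163-49064462) 70.
Ifit1: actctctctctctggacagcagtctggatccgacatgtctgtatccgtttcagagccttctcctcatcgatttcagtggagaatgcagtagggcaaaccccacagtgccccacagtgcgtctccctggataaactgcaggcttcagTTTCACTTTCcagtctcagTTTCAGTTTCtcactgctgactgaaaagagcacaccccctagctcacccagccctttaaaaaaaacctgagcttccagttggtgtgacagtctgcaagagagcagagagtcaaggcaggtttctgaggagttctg
Ifit3: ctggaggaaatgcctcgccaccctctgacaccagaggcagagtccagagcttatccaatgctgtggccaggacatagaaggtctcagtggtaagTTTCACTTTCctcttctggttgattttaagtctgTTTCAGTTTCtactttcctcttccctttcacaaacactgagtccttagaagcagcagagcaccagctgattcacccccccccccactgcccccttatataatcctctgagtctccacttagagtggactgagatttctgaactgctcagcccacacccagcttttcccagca
Gbp2: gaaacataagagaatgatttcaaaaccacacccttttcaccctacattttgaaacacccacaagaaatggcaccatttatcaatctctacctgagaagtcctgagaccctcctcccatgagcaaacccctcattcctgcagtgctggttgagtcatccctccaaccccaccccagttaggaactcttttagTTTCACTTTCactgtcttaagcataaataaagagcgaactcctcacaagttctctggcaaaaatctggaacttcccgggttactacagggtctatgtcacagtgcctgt
Tgtp2: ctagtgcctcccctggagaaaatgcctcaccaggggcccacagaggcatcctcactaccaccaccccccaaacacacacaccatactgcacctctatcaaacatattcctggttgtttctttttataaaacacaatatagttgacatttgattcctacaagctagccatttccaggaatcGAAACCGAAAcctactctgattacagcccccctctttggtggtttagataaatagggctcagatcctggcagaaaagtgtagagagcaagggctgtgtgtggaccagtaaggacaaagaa
A match says only that these letters are in the window.

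A share of the interferon-stimulated genes rose more with IR in sgRnf19a cells. Of 78 tested, edgeR called 15 (19.2%) with a higher difference, against 0.544% of all genes, and 0 with a lower one. At an unadjusted p under 0.05 the list had 48 higher and 4 lower, where 14.8% of all genes were higher and 6.44% lower. DESeq2 called 38 higher and 3 lower, against 7.15% and 2.17% of all genes. The median difference of the 78 was 1.08 log2 units, against 0.09 for all genes. Of the 15, 13 rose in both genotypes and rose further with the Rnf19a guide, and 2, Herc6 and Nmi, gained the rise. After the correction the responses of these 2 in control were called as rises (0.98 and 0.42 log2 units), so that they too counted as larger rises. The response of Herc6 in control had been -0.79 before the correction, so its sign changed. All 15 were also called in the difference after the correction, where the list had a median of 0.90. It then had 24 genes higher and 3 lower (Irf9, Rtp4 and Xaf1), against 1.23% and 0.83% of all genes. Without sgRnf19a IR replicate 4 the list had 28 higher and 3 lower, against 1.95% and 0.65% of all genes. The list was high with the guide before any treatment: the untreated mean was above that of control in 76 of 78 genes and in all 15. The list's median log2 CPM per library was 3.40 to 3.51 in control, 4.14 to 4.69 in control IR, 5.82 to 5.86 in sgRnf19a and 7.53 to 8.03 in sgRnf19a IR, with no overlap between any groups. The 8 immune markers summed to 21.6 to 44.8 CPM (without TMM scaling) in control and 1.30 to 13.0 in control IR, and to 34.7 to 57.4 in sgRnf19a and 11 to 28.7 in sgRnf19a IR. Their sums were thus lower with IR in both genotypes, with 2 of 8 markers at 0 throughout (Cd3e and Cd8a). Their part in the result was not tested.

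The IFIT genes encode proteins that bind foreign RNA. Ifit3 was at 2.5, 3.34 and 3.36 CPM in control and 12.5, 19.99 and 14.7 CPM in control IR, a 5.12-fold rise. It was at 22.1, 21.4 and 25.1 CPM in sgRnf19a and 810.0, 552 and 1231 CPM in sgRnf19a IR, a 37.8-fold rise. Every sgRnf19a IR library lay far above every other library, and the difference was 2.89 log2 units (SE 0.38, edgeR adjusted p = 0.0154). Ifit1 went from 5.29, 7.19 and 7.52 to 46.3, 94.5 and 62.4 CPM in control and from 41.1, 35 and 38.8 to 1763, 1402 and 2620.0 CPM with the Rnf19a guide. Its untreated libraries with the guide lay below those of IR-treated control, and the difference was 2.31 (SE 0.39, edgeR adjusted p = 0.0283). Ifit1bl1, a family member at low level, had a difference of 3.45 (SE 0.63, edgeR adjusted p = 0.0334; 2.81 after the correction). The family's genes lie side by side on chromosome 19 and share sequence, so counts could be split between them. Ifit2 went from 0.761, 6.17 and 8.42 to 5.25, 9.92 and 4.94 CPM in control and from 15.7, 9.94 and 10.2 to 182, 94.9 and 382 CPM with the Rnf19a guide, but with a wide spread, and its difference of 3.82 missed the call (edgeR adjusted p = 0.0922).

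Among interferon-induced GTPases, Gbp2 was at 4.23, 5.95 and 3.68 CPM in control and 19.1, 35 and 22.6 CPM in control IR. With the Rnf19a guide it was at 17.3, 16.1 and 16.5 CPM untreated and 686, 440.4 and 968 CPM after IR. The rises were 5.53-fold and 42-fold, and the groups with and without IR did not overlap in either genotype (difference 2.92, SE 0.42, edgeR adjusted p = 0.0162). Mx1 rose from 1.2, 1.01 and 0.999 to 2.48, 4.62 and 4.45 CPM in control and from 3.58, 3.56 and 3.14 to 77.4, 54.2 and 138 CPM with the guide. The untreated guide libraries of Mx1 lay within the range of the IR-treated control libraries, as a level, while the further rise was 26.2-fold against 3.61-fold. Ifi47, an immunity-related GTPase, rose from 0.609, 0.959 and 0.951 to 7.85, 8.89 and 8.27 CPM in control and from 5.49, 5.3 and 6.83 to 245, 209.5 and 239 CPM with the guide. The differences were 2.86 for Mx1 (SE 0.45, edgeR adjusted p = 0.0255) and 1.99 for Ifi47 (SE 0.25, edgeR adjusted p = 0.011).

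Other members of the list were called as well. Zbp1, a sensor of Z-form nucleic acids, went from 1.99, 2.02 and 2.13 to 9.69, 11.8 and 10.1 CPM in control and from 16.2, 14.3 and 16.1 to 219, 184 and 182 CPM with the guide (difference 1.29, SE 0.18, edgeR adjusted p = 0.0154). Usp18, which removes ISG15 from proteins and dampens interferon receptor signalling, went from 16.7, 17.1 and 17.6 to 103, 152 and 123 CPM and from 67.9, 57.1 and 63.3 to 1097, 1085 and 918 CPM (difference 1.16, SE 0.21, edgeR adjusted p = 0.0341). Both genes rose in each genotype, and the IR-treated guide libraries were the highest of the 12. Ube2l6, the E2 enzyme for ISG15, had a difference of 1.38 and Trim21, a cytosolic antibody receptor and E3 ligase, one of 1.62. Herc6, the mouse E3 ligase for ISG15, was at 14.6, 11.7 and 14.7 CPM in control and 7.21, 7.57 and 8.94 CPM in control IR, where its response was not called. With the guide it rose from 46.3, 45.4 and 49.4 to 118, 68.9 and 232 CPM, with replicate 4 the highest (difference 2.36, SE 0.47, edgeR adjusted p = 0.047; 1.42 after the correction). Nmi, an interferon-induced STAT partner, was at 15.5, 17.1 and 16.7 CPM in control IR and 80.2, 70.7 and 130.2 CPM in sgRnf19a IR, after 19.4, 11.9 and 16.8 and 22.5, 21.4 and 25.1 CPM untreated.

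**Figure D2:**
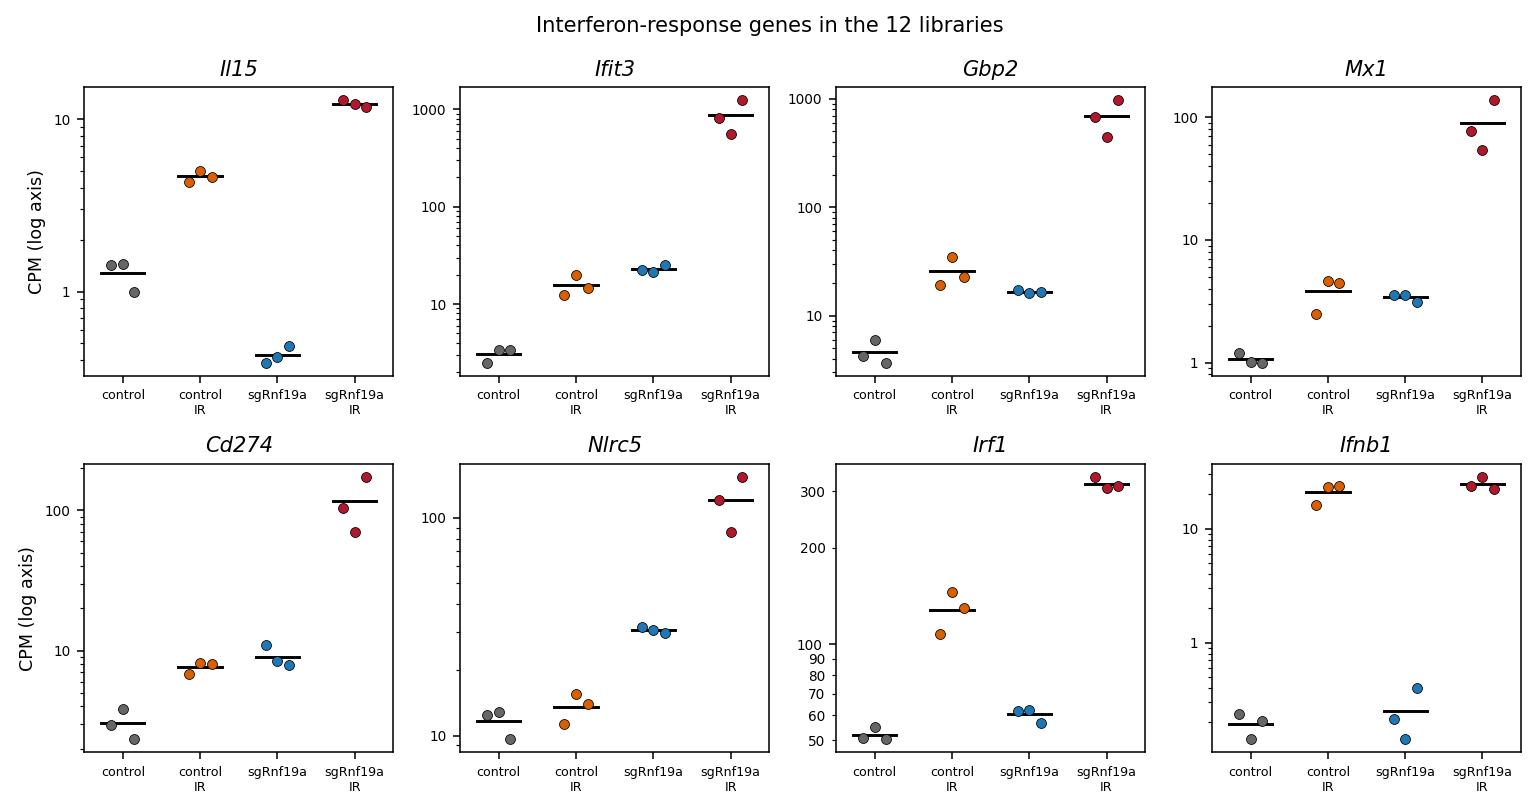
CPM on a log axis for 8 interferon-response or related genes in the 12 libraries (Il15 is from the cytokine list), with each point a library and each bar a group mean. In 7 genes the sgRnf19a IR libraries are the highest of all, while Ifnb1 rises to a similar level in both genotypes.

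The genes upstream did not follow one pattern. Ifnb1, which encodes interferon beta, was at 0.235, 0.142 and 0.205 CPM in control and 16.3, 23.2 and 23.8 CPM in control IR, and at 0.213, 0.143 and 0.4 CPM in sgRnf19a and 23.9, 28.4 and 22.4 CPM in sgRnf19a IR. It rose 108-fold and 98.4-fold, and the difference was -0.13 (SE 0.44, edgeR adjusted p = 0.906). The treated libraries of the 2 genotypes overlapped. Of 24 interferon pathway regulators, 2 were called, both higher, against 0.544% of all genes, with a list median of 0.08 (-0.05 after the correction). Irf1, a transcription factor induced by interferon and NF-kB, rose from 51, 54.9 and 50.5 to 108, 145 and 130.0 CPM in control and from 61.8, 62.1 and 56.9 to 332, 306 and 311 CPM with the guide (difference 1.10, SE 0.18, edgeR adjusted p = 0.0255), and Usp18 was the other. Untreated means of Irf7 and Stat2 were 13.32 and 19.01 CPM in control and 89.46 and 80.35 CPM with the guide. Irf7, which amplifies interferon induction, rose 4.15-fold in control and 3.39-fold with the guide (difference -0.29, edgeR adjusted p = 0.518). Stat2, a transcription factor of the interferon response, had a difference of 0.02 (edgeR adjusted p = 0.986), which turned negative after the correction (-0.12). Irf9, its partner, went from 16.6, 20.02 and 12.3 to 64.3, 64.5 and 61.8 CPM in control and from 52.2, 58.2 and 50.7 to 116, 92.2 and 89.5 CPM with the guide. Its difference of -1.08 missed the call (edgeR adjusted p = 0.0672) and was called lower after the correction (-1.10, adjusted p = 0.0281). Isg15 was not called either, with rises of 13-fold and 9.89-fold.

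Among 30 nucleic acid sensing genes, 3 were called, all higher (Cgas, Samhd1 and Zbp1), against 0.544% of all genes. DESeq2 called 12 higher and 1 lower, against 7.15% and 2.17% of all genes. The list median of 0.86 fell to 0.29 after the correction, where 8 were called higher, against 1.23% of all genes. Cgas, the cytosolic DNA sensor, reversed its response. It was at 1.59, 1.84 and 1.75 CPM in control and 1.1, 0.574 and 0.322 CPM in control IR, which are low levels. With the guide it was at 15.4, 12.5 and 16.4 CPM in sgRnf19a and 31.5, 25.6 and 33.1 CPM in sgRnf19a IR. It thus fell to 0.377 times its untreated level in control and rose 2.04-fold with the guide, from an untreated level already far above control (difference 2.44, SE 0.42, edgeR adjusted p = 0.0318). After the correction the fall in control was not called and Cgas counted as a gained response. Samhd1, which degrades nucleotides, was at 106, 107 and 115 and 72.3, 94.1 and 94.2 CPM in control without and with IR, and rose from 142, 150.3 and 147 to 367, 259 and 432 CPM with the guide (difference 1.60, SE 0.25). Sting1, the adaptor of cGAS, had rises of 1.33-fold and 1.51-fold (difference 0.18, edgeR adjusted p = 0.52). The RNA sensors Ifih1 and Ddx58 had differences of 2.22 and 1.27 and missed the call (edgeR adjusted p = 0.11 and 0.2), with sgRnf19a IR replicate 4 the highest library for both.

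Of 28 genes of MHC class I presentation, 2 were called, both higher, against 0.544% of all genes, with a list median of 0.60. DESeq2 called 7 higher and 0 lower, against 7.15% and 2.17% of all genes. Nlrc5, the transcriptional activator of the class I genes, gained its response: it was at 12.4, 12.8 and 9.62 CPM in control and 11.3, 15.5 and 13.9 CPM in control IR, which overlap, and rose from 31.4, 30.5 and 29.6 to 121, 86.2 and 154 CPM with the guide (difference 1.75, SE 0.29, edgeR adjusted p = 0.0255). After the correction its rise in control was called too (0.84 log2 units), and it counted as a larger rise. Tapbpl, a peptide editor, rose from 6.68, 6.44 and 6.23 to 15.5, 15 and 13.1 CPM in control and from 8.22, 8.79 and 8.54 to 60.6, 49.3 and 35.2 CPM with the guide (difference 1.33, SE 0.25, edgeR adjusted p = 0.0393). The class I heavy chains and their partners were not called. H2-K1 rose 2.5-fold in control and 1.95-fold with the guide, H2-D1 1.78-fold in both, and B2m 1.64-fold and 2.44-fold. Their untreated means with the guide were 746, 659 and 792 CPM, against 149, 278 and 412 CPM in control. In sgRnf19a IR replicates 1, 3 and 4, H2-K1 was at 1632, 1767 and 966 CPM and H2-D1 at 1352, 1470 and 694.5 CPM. Without replicate 4 their differences moved from -0.36 to -0.13 and from 0.0008 to 0.27, and neither was called. Tap1 was also lowest in replicate 4, and B2m was highest in it. Tap1, Psmb8 and Psmb9, of peptide transport and the immunoproteasome, had differences of 0.28, 0.04 and 0.29 (edgeR adjusted p = 0.623, 0.944 and 0.699). Their untreated means with the guide were 90.43, 70.46 and 9.763 CPM, against 18.07, 12.34 and 1.626 CPM in control. H2-K1 and H2-D1 are near copies, so their counts could be split.

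Cd274 (PD-L1, a ligand that restrains T cells) was the 1 called gene of 16 checkpoint ligands, where 0.544% of all genes were called higher. It was at 2.96, 3.85 and 2.33 CPM in control and 6.78, 8.14 and 8.08 CPM in control IR, and at 11, 8.38 and 7.88 CPM in sgRnf19a and 104, 70.1 and 173 CPM in sgRnf19a IR. The rise was 2.52-fold in control and 12.7-fold with the guide, and every treated guide library was several times every other library (difference 2.34, SE 0.42, edgeR adjusted p = 0.0318; 1.71 after the correction, adjusted p = 0.0061).

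Cytokines and chemokines split between called and uncalled genes: 4 of 47 were higher (Il15, Il6, Ccl2 and Ccrl2), against 0.544% of all genes, and 0 lower. The list median was 0.13. DESeq2 called 10 higher and 2 lower (7.15% and 2.17% of all genes), and 12 higher and 6 lower met an unadjusted p under 0.05 in edgeR (14.8% and 6.44% of all genes). Il15 (chromosome 8, 82331632 to 82403209), a cytokine of NK and memory T cells, had the lowest adjusted p of all genes. It was at 1.43, 1.44 and 0.999 CPM in control and 4.3, 5.02 and 4.64 CPM in control IR, and at 0.387, 0.416 and 0.482 CPM in sgRnf19a and 12.8, 12.3 and 11.8 CPM in sgRnf19a IR. It started lower with the guide and ended higher, with rises of 3.61-fold and 28.6-fold (difference 2.98, SE 0.29, edgeR adjusted p = 0.00492). Ccrl2, a chemerin-binding receptor, followed the same order, from 1.55, 1.15 and 1.23 to 8.41, 18.8 and 14 CPM in control and from 0.827, 0.506 and 0.951 to 47.5, 41 and 34.6 CPM with the guide (difference 2.36, SE 0.42). Ccl2, a monocyte chemokine, rose from 127, 106 and 150.1 to 421, 485 and 468 CPM in control and from 102, 72.7 and 90.8 to 783, 1007 and 729 CPM with the guide, and Il6 rose from 1.08, 0.454 and 0.421 to 4.47, 6.74 and 5.29 and from 0.64, 0.208 and 0.523 to 26.2, 26.8 and 31.4 CPM. Their differences of 1.40 and 2.86 were called (edgeR adjusted p = 0.0318 and 0.047) but not after the correction (0.179 and 0.0596). The T cell chemokine genes Cxcl10 and Ccl5 had differences of 0.92 and 1.06 and missed the call (edgeR adjusted p = 0.124 and 0.134). Cxcl9 was at 0, 0.0909 and 0 CPM in sgRnf19a, with 2 libraries at 0, so its fitted difference is no measure of size (edgeR adjusted p = 0.0672). Cxcl11, annotated as a polymorphic pseudogene, rose to 12.6, 17.4 and 14.5 CPM in control IR and 47.5, 52.5 and 40.3 CPM in sgRnf19a IR (edgeR adjusted p = 0.803).

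Gained rises were found in 34 genes, whose median response was 0.01 log2 units in control and 1.57 with the guide. After the correction 26 of them were still called in the difference, 16 as gained rises, and the medians became 0.43 and 1.93. Among those named here Tlr2, Kif5c and Vwa5a then had called rises in control of 0.52, 1.06 and 0.87 log2 units and counted as larger rises. The response of Vwa5a in control had been -0.47 before the correction, so its sign changed. Tlr2, the receptor for bacterial lipoproteins, was at 13.4, 12.1 and 10.9 CPM in control and 14.2, 17.6 and 13.3 CPM in control IR, and went from 19.4, 14.8 and 15.9 to 93.9, 80.4 and 92 CPM with the guide (difference 2.10, SE 0.22, edgeR adjusted p = 0.00628). Its 3 treated guide libraries were close together and over 4 times as high as any other. Kif5c, a kinesin heavy chain, was at 6.28, 7.26 and 4.86 and 5.82, 6.25 and 6.47 CPM in control and rose from 3.15, 4.73 and 2.92 to 19.9, 14.9 and 30.4 CPM with the guide (difference 2.58; 1.99 after the correction). Angpt1, the ligand of the TIE2 receptor, showed a wide spread, from 0.854, 1.23 and 1.53 to 5.41, 2.97 and 18.3 CPM with the guide against 4.55, 4.35 and 3.19 and 2.1, 1.84 and 1.05 CPM in control, with replicate 4 several times the other treated libraries. Its response in control was -1.29 log2 units before the correction and 0.43 after it, so its sign changed, and it was called in neither fit. Its difference of 4.17 (SE 0.80) was called at an edgeR adjusted p of 0.0415. It was 3.09 without sgRnf19a IR replicate 4 and 3.08 after the correction, and was called in both. Vwa5a was at 38.6, 25.1 and 28.4 and 17.5, 29.97 and 19.2 CPM in control and at 29.4, 31.3 and 35.5 and 106, 67.6 and 139 CPM with the guide (difference 2.16; 1.43 after the correction).

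Among the larger rises, 31 genes had a median response of 1.84 log2 units in control and 3.95 with the guide, and 27 remained in that class after the correction. Ifit1, Ifit3, Gbp2, Mx1, Cd274, Irf1 and Il15 belong to this class. A gene outside the interferon lists was Dll1, which encodes a Notch ligand. It was at 4.05, 2.19 and 2.91 CPM in control and 5.89, 5.16 and 6.57 CPM in control IR, and at 0.894, 0.935 and 1.17 CPM in sgRnf19a and 17.7, 16.8 and 12.1 CPM in sgRnf19a IR. Its rise was 1.93-fold in control and 15.5-fold with the guide, and it too started lower and ended higher in guide cells (difference 3.01, SE 0.35, edgeR adjusted p = 0.011).

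Reversed responses from a fall to a rise were found in 18 genes, with medians of -0.91 in control and 0.91 with the guide. The class depended on the correction: after the correction 14 of the 18 were still called in the difference, but only 4 as reversed, and their medians became -0.28 and 1.52. Sp110 and Aftph were reversed in both fits. Sp110, an interferon-induced nuclear body protein, was at 1.88, 1.97 and 2.73 CPM in control and 0.852, 0.803 and 0.59 CPM in control IR, and at 5.24, 3.95 and 1.69 CPM in sgRnf19a and 14.5, 10.2 and 16.7 CPM in sgRnf19a IR. No treated library of one genotype overlapped the other, and the difference was 3.48 (SE 0.53, edgeR adjusted p = 0.0243). Aftph, which encodes the trafficking protein aftiphilin, fell from 95.6, 93 and 68 to 22.4, 28.4 and 20.9 CPM in control and rose from 123, 127 and 130.5 to 219, 163 and 325 CPM with the guide (difference 2.73, SE 0.33, edgeR adjusted p = 0.011; 2.10 after the correction). The rise of Aftph was 1.86-fold, smaller than the 3.58-fold fall in control. Casp12, an inflammatory caspase, fell from 14.1, 9.29 and 11.5 to 2.17, 3.79 and 2.68 CPM in control and went from 4.9, 3.83 and 5.41 to 9.14, 5.9 and 17.3 CPM with the guide (difference 3.21; 2.53 after the correction). Its calls after the correction made it a gained response, as were Nedd9 (difference 2.57), a scaffold of focal adhesions, Etl4 (3.23) and Ppm1k (2.73; 1.74 after the correction and 2.14 without sgRnf19a IR replicate 4), a mitochondrial phosphatase. Nedd9 ended at 2.45, 2.04 and 2.68 CPM in control IR and 2.37, 2.28 and 2.34 CPM in sgRnf19a IR, so these treated libraries overlapped although the responses had opposite signs. Etl4 was at 0.36, 0.156 and 0.11 CPM in sgRnf19a, a low level, and its difference was 3.87 without sgRnf19a replicate 1. Mcm6, a replicative helicase subunit, and Dnaja1, an HSP70 co-chaperone, were reversed with differences of 1.03 and 1.60, and neither was called after the correction (0.60 and 0.79, adjusted p = 0.0864 and 0.164). Dnaja1 then had called rises in both genotypes, 0.75 log2 units in control and 1.54 with the guide, so no reversal remained.

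Reversal from a rise to a fall was found in 6 genes, with medians of 0.93 in control and -0.81 with the guide, and all 6 were also called in the difference after the correction, 2 of them as reversed. Relt, a TNF receptor family member, rose from 2.52, 1.7 and 2.47 to 4.47, 4.53 and 6.87 CPM in control and fell from 2.71, 2.61 and 2.69 to 1.76, 1.07 and 1.17 CPM with the guide (difference -2.24, SE 0.39, edgeR adjusted p = 0.0318). Rin1, an effector of RAS, rose from 40.4, 40.1 and 46.9 to 64.9, 54.9 and 54.2 CPM in control and fell from 43.5, 48.1 and 43.8 to 31.3, 32.6 and 26.1 CPM with the guide (difference -1.04, SE 0.19, edgeR adjusted p = 0.0334). The untreated levels of both genes were close in the genotypes, and the treated libraries were apart. Relt and Rin1 were reversed in both fits, while after the correction Aqp3 and Pdgfa counted as gained falls and Dsp and Lockd as lost rises. Aqp3, a water and glycerol channel, went from 3.74, 2.4 and 3.42 to 6.46, 5.91 and 6.14 CPM and from 2.7, 3.73 and 4.59 to 1.53, 1.73 and 1.62 CPM (difference -2.13). Pdgfa, a growth factor for mesenchymal cells, went from 17.2, 17.5 and 14 to 26, 25.1 and 24 CPM and from 11.1, 12.7 and 11.6 to 8.93, 7.8 and 5.32 CPM (difference -1.31). Dsp, which encodes desmoplakin of desmosomes, was at 0.304, 0.479 and 0.614 CPM in control against 47.9, 56.6 and 48.1 CPM in sgRnf19a before treatment, and at 1.56, 0.86 and 1.13 against 33.9, 19.5 and 35.7 CPM after it (difference -2.10). Its level set the genotypes apart in every library, and the reversal was a change on top of that. The noncoding RNA Lockd had a difference of -1.76 (-2.39 after the correction).

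**Figure D3:**
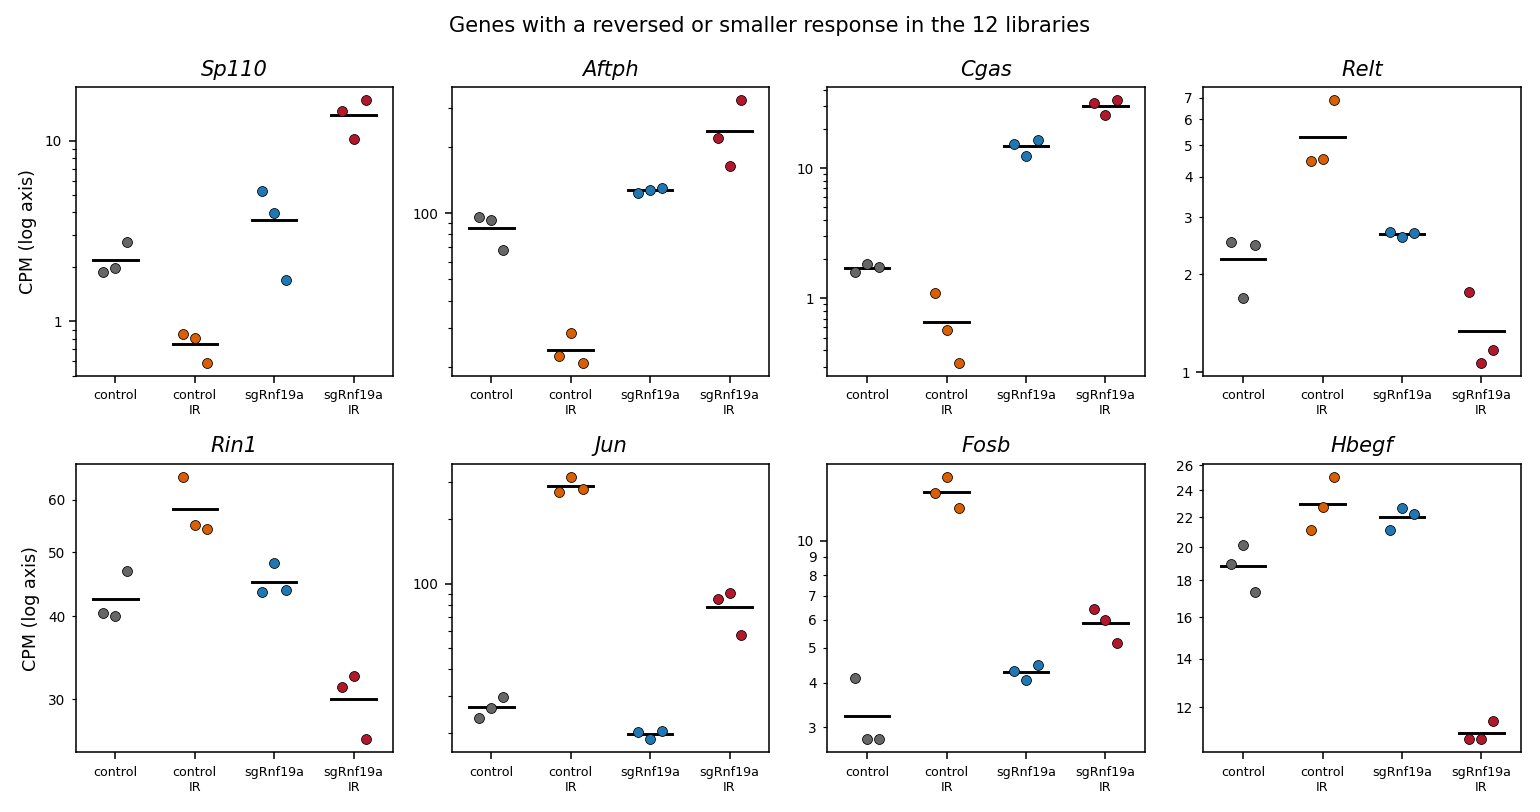
CPM on a log axis for 8 genes with a reversed, lost, gained falling or smaller response in the 12 libraries, with each point a library and each bar a group mean. Sp110, Aftph and Cgas fall with IR in control and rise with the guide (the fall of Cgas was not called after the correction), Relt and Rin1 do the opposite, and Jun and Fosb reach lower treated levels with the guide.

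The immediate early list held 2 of the called genes with a lower difference and 0 with a higher one, of 41, against 0.137% and 0.544% of all genes. Its median was -0.33. Jun was at 23.5, 26.4 and 29.7 CPM in control and 269, 316 and 276 CPM in control IR, and at 20.3, 18.8 and 20.6 CPM in sgRnf19a and 84.6, 90.7 and 57.6 CPM in sgRnf19a IR. It rose 10.8-fold in control and 3.91-fold with the guide, the 1 gene of the 124 whose rise was called in both genotypes and was smaller with the guide (difference -1.47, SE 0.24, edgeR adjusted p = 0.0255). Fosb, another AP-1 subunit, lost its rise: it went from 4.11, 2.77 and 2.78 to 13.6, 15.1 and 12.4 CPM in control and from 4.3, 4.07 and 4.48 to 6.43, 6.0 and 5.16 CPM with the guide (difference -1.63, SE 0.27, edgeR adjusted p = 0.0268). DESeq2 called 6 of the list lower and 1 higher, against 2.17% and 7.15% of all genes. An unadjusted p under 0.05 was met by 11 lower and 4 higher, against 6.44% and 14.8% of all genes. After the correction Egr3 and Ier2 were called lower as well, with corrected differences of -1.74 and -0.99. The list then had 4 genes lower and 0 higher, against 0.83% and 1.23% of all genes. Atf3 was not called, with rises of 11.3-fold and 17.4-fold. Hbegf, a ligand of the EGF receptor, was at 19, 20.1 and 17.4 CPM in control and 21.2, 22.7 and 25 CPM in control IR, and fell from 21.1, 22.7 and 22.2 to 10.8, 10.8 and 11.5 CPM with the guide (difference -1.28, SE 0.17, edgeR adjusted p = 0.0154). The untreated levels of Hbegf were close in the genotypes, and the treated guide libraries were the lowest of all. Its response counted as a gained fall, and as reversed after the correction.

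Other gained falls, 9 in all including Hbegf, had a median response of 0.02 in control and -1.21 with the guide, and all 9 were also called after the correction. A4galt, the synthase of the glycolipid Gb3, was at 18, 15.1 and 16.1 and 20.5, 21.1 and 19.3 CPM in control and fell from 4.98, 6.17 and 6.13 to 2.83, 3.17 and 2.24 CPM with the guide. Abcc10, a drug efflux transporter, was at 7.36, 7.08 and 5.55 and 7.42, 6.57 and 7.51 CPM in control and fell from 8.97, 10.2 and 8.47 to 4.36, 3.97 and 4.58 CPM. Their differences were -1.38 and -1.20, with falls of 2.1-fold and 2.14-fold in guide cells. Chst1, a keratan sulfate sulfotransferase, Dennd2a, a RAB exchange factor, and Kcnd1, a potassium channel, had differences of -1.42, -1.12 and -1.21. For each, the libraries of control with and without IR overlapped.

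Lost falls were found in 14 genes, whose medians were -1.90 in control and 0.26 with the guide. After the correction 9 were still called in the difference, 3 of them as lost, and the median response in control was -0.96. Sesn3, Fmnl2, Katna1 and Crot then counted as reversed and Etnk1 as a gained rise. Sesn3, a stress-induced regulator of mTORC1, fell from 55.6, 46.9 and 36 to 7.38, 9.98 and 10.8 CPM in control and went from 14.1, 15.7 and 13.8 to 15.3, 11.8 and 23.2 CPM with the guide (difference 2.50, SE 0.35, edgeR adjusted p = 0.0154; 1.67 after the correction). Fmnl2, a formin of the actin cytoskeleton, fell from 105, 93.7 and 104 to 16.2, 17.3 and 18 CPM in control and went from 47.7, 49.6 and 51.9 to 43.8, 26.5 and 64.3 CPM (difference 2.40, SE 0.34, edgeR adjusted p = 0.0154; 1.61 after the correction). In both genes control lay above the guide cells before IR and below them after it. Lifr, the receptor for leukaemia inhibitory factor, went from 22.6, 19.9 and 16.9 to 3.83, 2.47 and 2.31 CPM in control and from 6.38, 7.07 and 5.66 to 3.71, 3.35 and 9.74 CPM (difference 2.61; 1.62 after the correction and 1.95 without sgRnf19a IR replicate 4). Katna1, the microtubule-severing subunit of katanin, fell from 36.8, 37.2 and 29.2 to 8.31, 13.5 and 12.3 CPM in control and went from 37.3, 37.9 and 36.7 to 53.7, 38.7 and 112 CPM, with replicate 4 the highest (difference 2.47). Crot, a peroxisomal acyltransferase, and Etnk1, an ethanolamine kinase, had differences of 2.34 and 2.10 (1.73 and 1.19 after the correction). The genes with a higher difference, which include the lost falls, had a median GC content of 46.5% and a median length of 3428 bases, against 49.8% and 2695 bases over all genes. Genes with a lower difference had 53.8% and 2680 bases. The part of that balance in the result beyond the fitted correction was not tested.

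Lost rises numbered 9, with medians of 1.54 in control and -0.00 with the guide, and 8 were called in the difference after the correction, 7 of them as lost rises. Beside Fosb, Tcim rose from 65.5, 46.3 and 46.2 to 128, 173 and 159 CPM in control and was at 38.7, 41.3 and 42.5 and 52, 39.8 and 44.9 CPM with the guide (difference -1.38, SE 0.25, edgeR adjusted p = 0.0318). Its untreated levels were closer between the genotypes than its treated levels. Ddx28, a mitochondrial RNA helicase, and Cd300lb, an immune receptor, had smaller differences of -0.99 and -0.80.

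**Figure D4:**
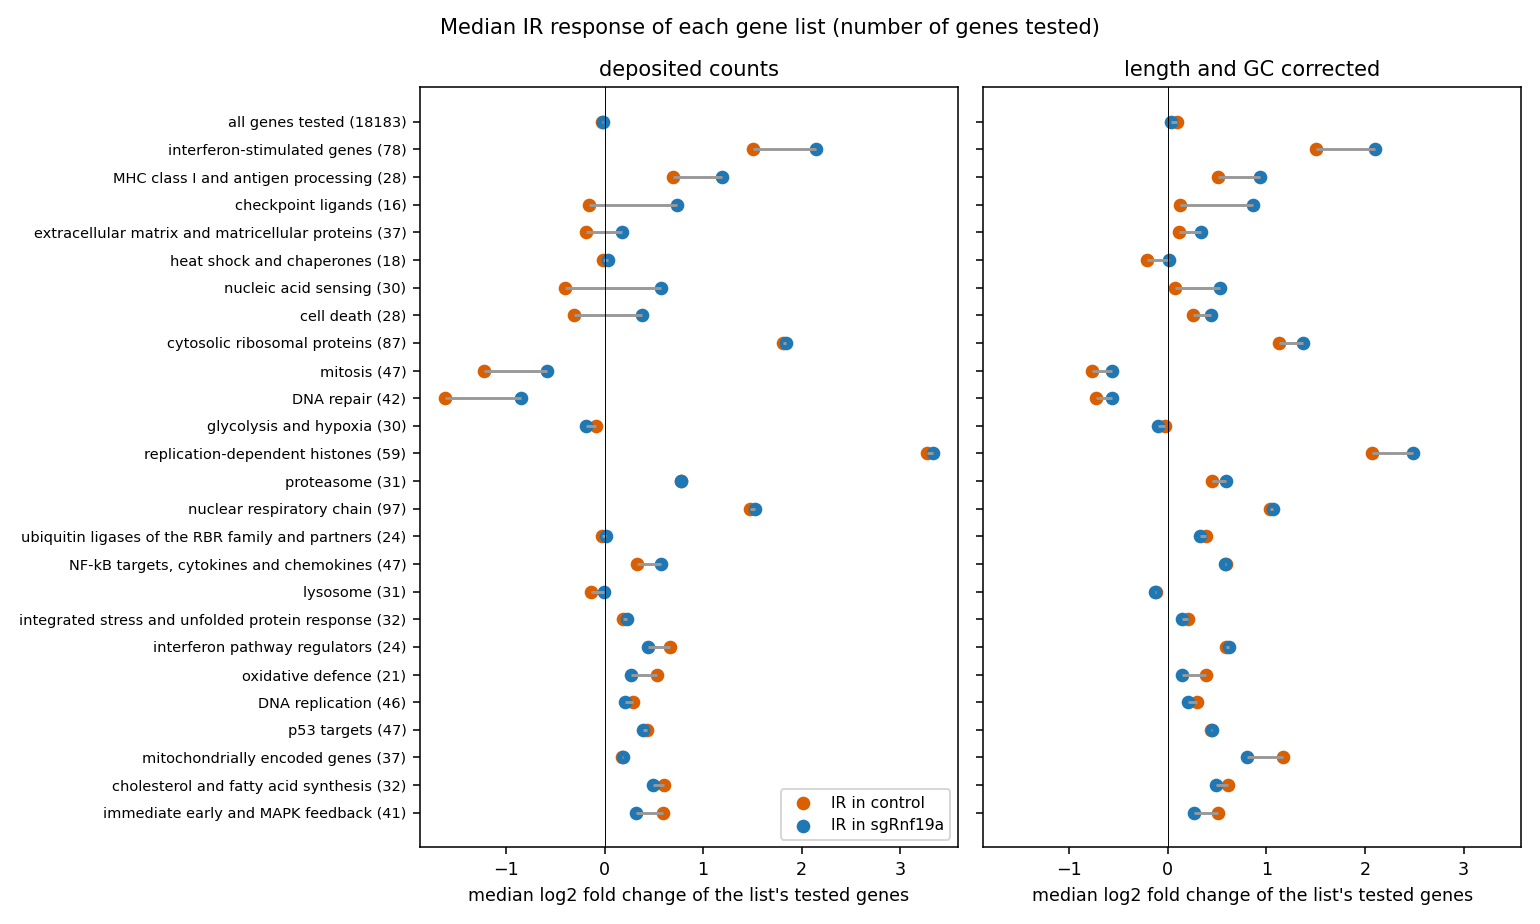
Median log2 fold change with IR of the tested genes of 25 lists and of all genes, in control (orange) and sgRnf19a cells (blue), from the deposited counts (left) and after the length and GC correction (right). The interferon-stimulated list differs by a similar amount in both panels, while the mitosis and DNA repair lists differ less in the right one.

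Several lists held no difference called by edgeR. The 59 replication-dependent histone genes had median rises of 3.28 log2 units in control and 3.34 with the guide, the 87 cytosolic ribosomal protein genes 1.81 and 1.84, and the 97 nuclear respiratory chain genes 1.48 and 1.53. At an unadjusted p under 0.05, which 14.8% of all genes met with a higher and 6.44% with a lower difference, 1 histone gene was higher and 6 lower, 6 ribosomal protein genes were higher, and 3 respiratory chain genes were higher and 1 lower. DESeq2, which called 7.15% of all genes higher and 2.17% lower, called 1 histone gene lower, 4 ribosomal protein genes higher and 2 respiratory chain genes higher. The 47 mitosis genes had median falls, -1.22 in control and -0.59 with the guide. The 42 DNA repair genes had medians of -1.62 and -0.84. Against the same shares of all genes, DESeq2 called 12 mitosis and 8 DNA repair genes higher and 0 lower, and 16 and 15 were higher and 1 and 2 lower at an unadjusted p under 0.05 in edgeR. In those last lists the difference of 0.77 and 0.72 came down to 0.16 and 0.15 after the correction. There 1 mitosis gene was called higher (Ndc80, edgeR adjusted p = 0.0491), against 1.23% of all genes. Mki67, a proliferation marker, fell in both genotypes and had a difference of 1.16 (edgeR adjusted p = 0.404). Of 47 p53 targets, 1 was called by edgeR, against 0.544% of all genes called higher. It was Ccng2 (difference 1.34), which missed the call after the correction. Cdkn1a, the p53-induced inhibitor of cyclin-dependent kinases, rose 2.53-fold in control and 1.79-fold with the guide (difference -0.49, edgeR adjusted p = 0.366), and Mdm2 had a difference of 0.84 (adjusted p = 0.318). Of 24 ubiquitin ligases of the RBR family and partners, edgeR called 3 higher, against 0.544% of all genes. These were Ube2l6, Herc6 and Usp18, which are also in the interferon list. Rps6ka1, which encodes the kinase RSK1, was at 47.5, 33.8 and 43.3 CPM in control IR and 33.7, 37.7 and 20.1 CPM in sgRnf19a IR (difference -0.30, edgeR adjusted p = 0.625).

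**Figure D5:**
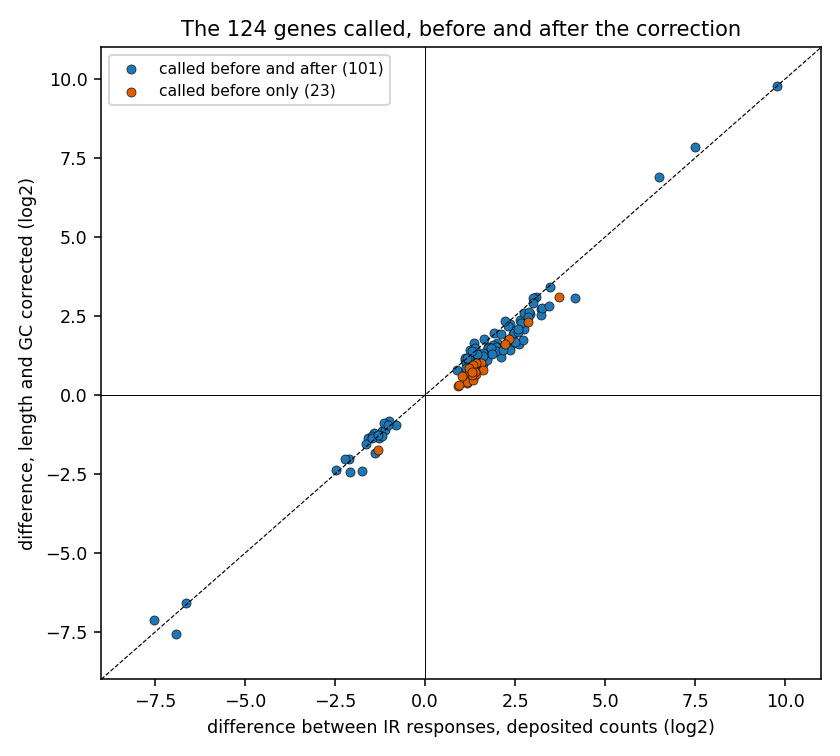
Difference between the IR responses of the 124 called genes, in log2 units, from the deposited counts (x axis) and after the length and GC correction (y axis). All points keep their sign, and the 23 that lost the call (orange) lie mostly among the smaller positive differences.

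The 124 differences had different reliability. In 119 of the genes every library had a count, and their differences ran from -2.47 to 6.49 log2 units. The other 5 had a library at 0, so their fitted differences are no measure of size. The treated libraries of the 2 genotypes did not overlap in 119 of the 124 genes, against 42.5% of all genes tested, and nothing is read from that count since the test used these libraries.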

How the data were processed

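RNA was measured in 12 libraries. Libraries were directional, ribosomal RNA depleted and sequenced as read pairs, per the labels' protocols. The submitters' processing notes name Bowtie2, HTSeq, DESeq2, mm10 and GRCm39. Versions and strand settings were not given in the sources used here, so overlapping genes are uncertain. The authors deposited counts per gene, not normalized, and FPKM values. The deposited counts are whole numbers, but in longer genes low values pile up at multiples of 4 (4 occurred 5833 times, 3 occurred 961 times), so they were treated as estimated counts. The 12 count columns repeated in the FPKM table were not used. The treated columns carry no word for IR and were placed by group, since no other group is left for them.

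Genes were kept by filterByExpr (minimum count 10, minimum total 15), scaled by TMM and fitted with 4 group means by the robust quasi-likelihood test of edgeR 4.0.16 (R 4.3.3, 2-sided). The Benjamini-Hochberg adjustment covered the 18183 genes, with calls under 0.05. CPM are TMM-scaled. The correction used splines (5 degrees of freedom) on log transcript length and GC content from GENCODE M21, per library; 18159 genes had both values. Alternatives were DESeq2 1.42.0, other scalings and filters, counts divided by 4, limma 3.58.1 on log2(FPKM + 1) or log2(FPKM + 0.1), filtered at 0.5 FPKM on average or unfiltered, a replicate block, and leaving out each library. The pseudocount makes FPKM fold changes of low genes too small. No library was a copy of another (lowest chi-square per degree of freedom 7.23).

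Named genes were Rnf19a, up to 6 per class and direction with the largest difference (a mean of at least 2 CPM, called before and after the correction), up to 6 per list by p, and fixed genes. The comparison, lists and rule were chosen with earlier results of these data known. Of the genes named by the rule, 3 are not reported here. Plots were made in matplotlib 3.10.9.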

Additional observations from a re-analysis of the deposited data

Results flagged for a closer look

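The test of the difference itself, the interaction of genotype and IR in edgeR, called 124 genes. The named ones follow with their difference in log2 units, with the Rnf19a guide minus control.

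Larger rises with the guide were seen for Ifit1bl1 (3.45), Dll1 (3.01), Il15 (2.98), Gbp2 (2.92), Ifit3 (2.89), Mx1 (2.86), Il6 (2.86), Ccrl2 (2.36), Cd274 (2.34), Ifit1 (2.31), Ifi47 (1.99), Trim21 (1.62), Ccl2 (1.40), Ube2l6 (1.38), Tapbpl (1.33), Zbp1 (1.29), Usp18 (1.16) and Irf1 (1.10). The smaller rise was that of Jun (-1.47).

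Gained rises were those of Angpt1 (4.17), Kif5c (2.58), Herc6 (2.36), Vwa5a (2.16), Tlr2 (2.10), Nmi (1.99), Nlrc5 (1.75) and Samhd1 (1.60). Gained falls were those of Chst1 (-1.42), A4galt (-1.38), Hbegf (-1.28), Kcnd1 (-1.21), Abcc10 (-1.20) and Dennd2a (-1.12).

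Lost falls were those of Lifr (2.61), Sesn3 (2.50), Katna1 (2.47), Fmnl2 (2.40), Crot (2.34), Etnk1 (2.10) and Ccng2 (1.34). Lost rises were those of Fosb (-1.63), Tcim (-1.38), Ddx28 (-0.99) and Cd300lb (-0.80).

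Falls that became rises were those of Sp110 (3.48), Etl4 (3.23), Casp12 (3.21), Aftph (2.73), Ppm1k (2.73), Nedd9 (2.57), Cgas (2.44), Dnaja1 (1.60) and Mcm6 (1.03). Rises that became falls were those of Relt (-2.24), Aqp3 (-2.13), Dsp (-2.10), Lockd (-1.76), Pdgfa (-1.31) and Rin1 (-1.04).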

How the results depend on the processing

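The count of 124 calls became 374 with the length and GC correction, 1695 with DESeq2, 55 on log2(FPKM + 0.1) and 505 without sgRnf19a IR replicate 4 with the correction. In that order, gained responses (43) numbered 119, 326, 17 and 135, lost ones (23) 123, 728, 11 and 126, reversed ones (24) 47, 64, 5 and 55, and those of changed size (34) 85, 562, 22 and 189. Reversed responses numbered 38 with at least 1 CPM in 3 libraries, 13 on log2(FPKM + 1) and 3 on log2(FPKM + 1) with no filter, where those of changed size numbered 52 in the first and 22 in the last. The higher share of calls was 79.8%, 59.6% after the correction, 71.4% with upper-quartile factors and 67.9% with protein-coding genes only. Leaving out 1 library gave 5 to 2624 calls, 2 to 316 gained, 0 to 1518 lost, 0 to 92 reversed and 3 to 661 of changed size, each lowest without control IR replicate 5 and highest without sgRnf19a IR replicate 3. The cause was not tested.

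A replicate block on the column numbers gave 2767 calls (273 gained, 809 lost, 67 reversed, 1568 of changed size), and with the correction 1115 (173, 383 and 517 gained, lost and of changed size; 49.1% higher). Same-number libraries showed little likeness: of 11 such pairs, whose deviations correlated at -0.157 to 0.286, 1 was over 0.1. With 3 libraries per group these correlations cannot settle whether the libraries are paired.

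None of the 59 named genes called changed sign in any setting. Those named by class had to be called with the same sign after the correction, so their result there was fixed in advance. The correction kept 54 of the 59 calls, and 101 of all 124. DESeq2 kept 59, log2(FPKM + 1) 39 of 56, log2(FPKM + 0.1) 26 of 56, and omitting control IR replicate 5 kept 3. Some uncalled genes changed sign, including B2m (0.57) and Mki67 (1.16), which were not near 0 in the main fit. H2-D1 was -0.0916 with upper-quartile factors, -0.0276 with 1 CPM in 3 libraries, -0.0429 with coding genes, -0.26 with the block, -0.0228 on counts divided by 4, and -0.0432, -0.0449 and -0.0432 on log2(FPKM + 1), log2(FPKM + 0.1) and no filter (-0.19 to 0.27 leaving out 1 library). Stat2 was -0.12 with the correction, -0.0837 with upper-quartile factors, -0.0013 with 1 CPM, -0.0164 with coding genes, -0.0001 on counts divided by 4 and -0.18 without sgRnf19a IR replicate 4 with the correction (-0.14 to 0.14). Cxcl11 was -0.21 with the correction and -0.55 with the block added (-0.19 to 0.48), B2m -0.029 with both, Psmb8 -0.0503 with upper-quartile factors (-0.0747 to 0.22) and Mki67 -0.30 without sgRnf19a IR replicate 4 with the correction. Ifnb1 was 0.16, 0.0346 and 0.16 in the FPKM settings (-0.42 to 0.36). Total counts bound the precision of low genes. Low values piled up at multiples of 4, so 1 read pair may be worth about 4 counts, which was not tested.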
